A study of Homo sapiens with 9 samples.

Results

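The genes described here are MYBPH, CHI3L1, CITED4, APBB1, SLC2A5, HIVEP3, ENDOD1, KAZALD1 and MYO7A, 9 of the 13410 genes analysed. They were chosen by their log2 fold changes in the authors' deposited table, as genes with large decreases after 1000 nM alisertib or with lower values after alisertib than after JB170. Their alisertib values are therefore a description and were not tested. MV4-11 is a human acute monocytic leukaemia line that carries a KMT2A-AFF1 fusion and an internal tandem duplication of FLT3. The cells, one established line grown in RPMI medium with serum, were kept for 18 h in the vehicle DMSO, in 100 nM JB170 or in 1000 nM alisertib, with 3 libraries in each group and 9 in all. Alisertib inhibits the kinase activity of Aurora A, and JB170 is an Aurora A degrader. The table compares DMSO with JB170, with a column headed A1000, read as alisertib from its dose, and with columns headed A100 and MK. The labels give no group for A100 or MK, so the treatment, the dose and the number of libraries behind those columns are not known here.

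Aurora A is a serine/threonine kinase that matures centrosomes and builds the mitotic spindle. Proteins that bind it can activate it, and it also has roles that do not need its catalytic activity. The 9 genes are not a known pathway. They encode 2 secreted proteins, a muscle thick filament protein and an unconventional myosin. The others are a sugar transporter, an adaptor of the amyloid precursor protein, a nuclease-like protein and 2 transcription regulators.

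All changes are given on the log2 scale as treated minus DMSO. The headers of the authors' deposited table name DMSO first, and the columns A1000, A100 and MK were turned round to give this direction. The JB170 column was left as deposited, because across genes it ran opposite to the other 3. These directions were inferred from the values, and no header states them. If the whole table ran the other way, all signs below would change. Were the JB170 column read like the others, every sign given for JB170 would turn. The headers name DMSO in all 4 comparisons, and the labels list 3 DMSO libraries. Whether A100 and MK were compared with these same libraries is not stated. Where libraries are shared, an unusual DMSO value of a gene enters each comparison alike. No values of single libraries were analysed, so no level per sample can be given and the depth is unknown. In bulk cells, fewer cells of a kind and less RNA per cell cannot be told apart. Intervals are 95% intervals implied by each deposited p-value. The labels do not say whether libraries came from separate cultures, so the spread they reflect may be technical. Of 12 myeloid and MV4-11 markers 11 were listed, with FLT3 at a mean of 9.88 log2 CPM (counts scaled to the library total) and SPI1 at 8.26 in the authors' deposited table. Which libraries that mean covers is not stated, here and wherever a mean log2 CPM is given. HOXA9 (1.41) and ITGAM (1.95) had the lowest means of the 11 in the authors' deposited table, and CEBPA was not listed. None of the 3 T lymphoid, 3 erythroid or 4 skeletal muscle markers was listed. KRT8 (2.63) and KRT18 (2.80) were the highest of the B lymphoid, epithelial and fibroblast markers in mean log2 CPM in the authors' deposited table. Both lay above HOXA9 and ITGAM.

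Sequence was matched for 8 of the 9 genes in a RefSeq table of promoters (build GRCh38.p14), from the first start listed for each gene; MYO7A had no entry. The 250 bases before the start are printed for 4 genes, because these shared a feature that the choice of genes did not use. Each held the letters TATAA on the coding strand in the last 50 bases before the start, shown in capitals, 5′ to 3′. The stretch of MYBPH lies at chr1:203175827-203176076, that of SLC2A5 at chr1:9069636-9069885, that of CHI3L1 at chr1:203186705-203186954 and that of CITED4 at chr1:40862364-40862613, all on the minus strand.
MYBPH: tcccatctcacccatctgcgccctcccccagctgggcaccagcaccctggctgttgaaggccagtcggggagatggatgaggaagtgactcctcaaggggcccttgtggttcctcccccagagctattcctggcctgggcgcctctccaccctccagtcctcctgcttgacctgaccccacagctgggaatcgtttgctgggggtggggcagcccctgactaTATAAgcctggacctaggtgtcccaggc
SLC2A5: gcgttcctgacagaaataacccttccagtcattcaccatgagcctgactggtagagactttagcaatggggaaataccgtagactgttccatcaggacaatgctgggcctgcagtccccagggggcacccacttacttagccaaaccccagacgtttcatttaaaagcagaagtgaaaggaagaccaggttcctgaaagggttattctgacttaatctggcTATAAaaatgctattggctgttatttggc
CHI3L1: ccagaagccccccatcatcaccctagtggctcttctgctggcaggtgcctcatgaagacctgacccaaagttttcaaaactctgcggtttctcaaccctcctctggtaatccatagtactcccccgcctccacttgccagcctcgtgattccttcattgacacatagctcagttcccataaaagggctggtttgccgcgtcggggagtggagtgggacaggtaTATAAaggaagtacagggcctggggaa
CITED4: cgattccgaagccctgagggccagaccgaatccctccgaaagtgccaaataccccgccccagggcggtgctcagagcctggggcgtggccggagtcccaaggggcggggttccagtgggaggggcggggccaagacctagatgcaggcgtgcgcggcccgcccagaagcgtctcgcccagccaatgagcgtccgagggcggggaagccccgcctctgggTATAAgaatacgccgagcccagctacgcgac

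TATAA is the core of the TATA box, an element that positions the start of transcription. Its first base lay 28 bases before the start in MYBPH, 29 in SLC2A5, 27 in CHI3L1 and 31 in CITED4. These distances hold for the RefSeq start used. In GENCODE release 29 SLC2A5 extends to chr1:9088478 and CHI3L1 to chr1:203186749. The printed SLC2A5 stretch and the TATAA of CHI3L1 thus lie inside the genes as annotated there. The letters stood in that window in 4 of the 8 promoters, against 5.12% of 27305 promoters and 2.55% of the 6676 promoters matched to genes with a mean log2 CPM of at least 3. This motif was looked for after the sequences had been seen. Searched on both strands over 250 bases, AGGAAGT, a form of the ETS core, was found in 2 of 8 promoters, those of MYBPH and CHI3L1, and in 7.1% of all promoters. CCAAT was found in 4 of 8 against 33% of all, and GGGCGG, the GC box, in 5 of 8 against 42.3% (68.8% of the promoters of genes with a mean log2 CPM of at least 3). TGANTCA and CACGTG were in none of the 8, against 6.6% and 6.49% of all promoters. In CHI3L1 the AGGAAGT begins where TATAA ends. A match describes these letters only.

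In column A1000 all 9 genes were lower and past an adjusted p of 0.05, next to 2.83% of all genes. Their choice used this contrast, so nothing is read from this count; at a threshold of 0.01 ENDOD1 was not called. Under the same threshold none of the 9 was called lower in A100 (0.537% of all genes), 1 was in MK (0.149%) and none in JB170 (0.00746%). In either direction 5.92% of all genes were called in A1000, 1.3% in A100, 0.47% in MK and 0.0298% in JB170. What test gave these calls is not stated in the labels or the file. In A1000 8.52% of all genes were lower at an unadjusted p under 0.05. In A100 an unadjusted p under 0.05 with a lower value was found for 4 of the 9 (5.3% of all genes), in MK for 3 (4.59%) and in JB170 for 0 (1.63%). The median of the 9 genes in the authors' deposited table was -1.07 in A1000, -0.29 in A100, -0.21 in MK and 0.11 in JB170, where the median of all genes lay between -0.00061 and 0.0061. The working name, a decrease with 1000 nM alisertib only, thus did not hold for HIVEP3, which was also called lower in MK. For the other genes a missed threshold does not show that the value was unchanged. The implied standard errors were also larger in MK than in A1000, as for CITED4 (0.162 against 0.134) and HIVEP3 (0.176 against 0.144). Only APBB1 went the other way (0.231 against 0.239). Equal changes need not be called alike in the 2 columns. The intervals of KAZALD1 and CITED4 lay below 0 in both A100 and MK, and those of SLC2A5 and MYO7A in A100.

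**Figure D1:**
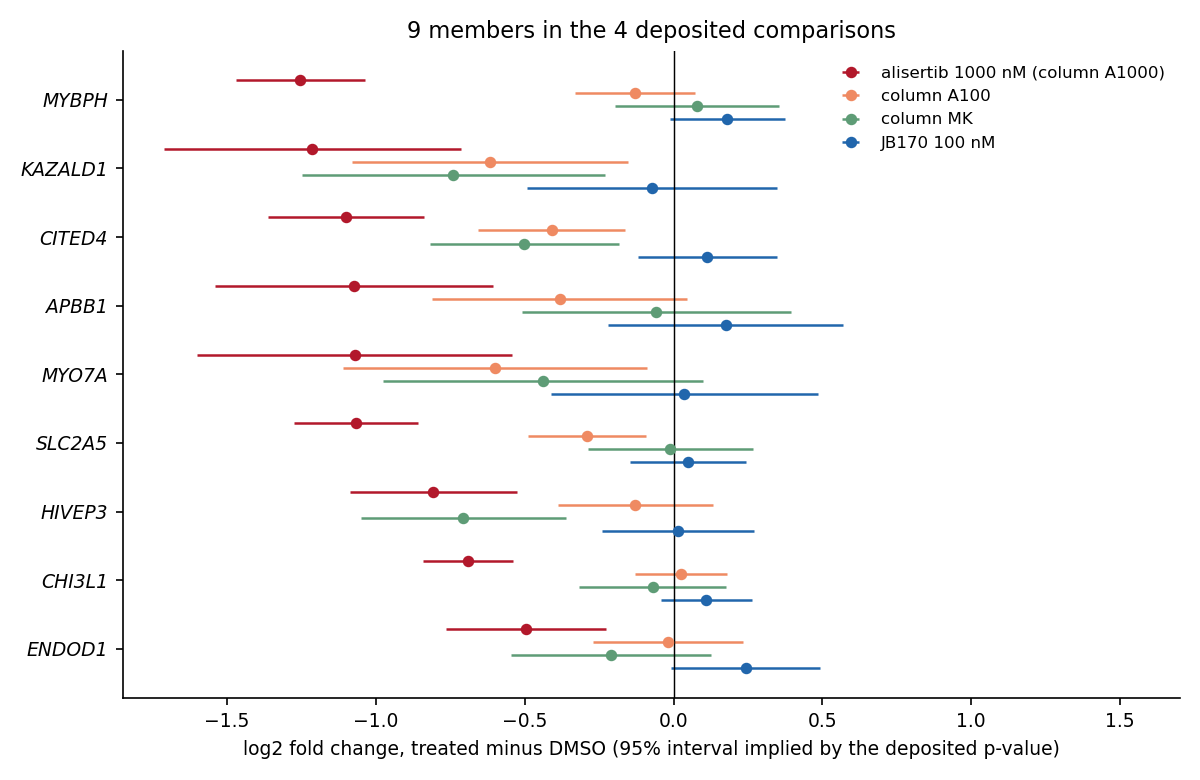
Log2 fold change (treated minus DMSO, x axis) of each of the 9 genes (y axis) in the 4 deposited comparisons, with 95% intervals implied by the deposited p-values. All 9 points for alisertib lie below 0, from -1.25 to -0.49, while the JB170 points lie between -0.07 and 0.24 and every JB170 interval includes 0.

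Of the secreted proteins, CHI3L1 (ENSG00000133048) encodes a chitinase-like glycoprotein of macrophages and neutrophils that binds chitin without cutting it. It had the highest mean of the 9, 8.69 log2 CPM in the authors' deposited table, and also the narrowest intervals. With alisertib it stood at -0.69 (interval -0.84 to -0.54), which is 62.0% of the DMSO level in the authors' deposited table. The other 3 comparisons of the authors' deposited table gave 0.02 in A100 (-0.13 to 0.18), -0.07 in MK (-0.32 to 0.18) and 0.11 in JB170 (-0.04 to 0.26). All 3 of these intervals include 0, and that of A1000 overlaps none of them. KAZALD1 (ENSG00000107821), a secreted relative of the insulin-like growth factor binding proteins with a Kazal domain, behaved otherwise. The authors' deposited table gave it -1.21 with alisertib (-1.71 to -0.72), -0.62 in A100 (-1.08 to -0.15), -0.74 in MK (-1.25 to -0.23) and -0.07 in JB170 (-0.49 to 0.35). Neither A100 (p = 0.00906, adjusted p = 0.224) nor MK (p = 0.00447, adjusted p = 0.243) passed the threshold in the authors' deposited table. Its mean of 3.43 log2 CPM in the authors' deposited table was among the 3 lowest of the group.

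MYBPH (ENSG00000133055) encodes myosin binding protein H, a thick filament protein of skeletal muscle, in cells where none of the muscle markers was listed. It had the largest decrease of the 9, -1.25 with alisertib (-1.47 to -1.04) or 42.0% of the DMSO level in the authors' deposited table. It stood at -0.13 in A100 (-0.33 to 0.07), at 0.08 in MK (-0.20 to 0.36) and at 0.18 in JB170 (-0.01 to 0.37) in the authors' deposited table. Like CHI3L1 it was low in one comparison, and the other 3 intervals include 0. MYO7A (ENSG00000137474), the motor of hair cell stereocilia that is mutated in a form of Usher syndrome, was the gene with the lowest mean (3.25 log2 CPM) and the widest intervals in the authors' deposited table. Its values in the authors' deposited table were -1.07 with alisertib (-1.60 to -0.54), -0.60 in A100 (-1.11 to -0.09), -0.44 in MK (-0.98 to 0.10) and 0.04 in JB170 (-0.41 to 0.49). The A100 value had an unadjusted p of 0.0209 and an adjusted p of 0.332 in the authors' deposited table. The intervals of A1000, A100 and MK overlap one another.

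SLC2A5 (ENSG00000142583), the fructose transporter GLUT5, stood at -1.06 with alisertib (-1.27 to -0.86), 47.8% of the DMSO level in the authors' deposited table. In A100 it was at -0.29 (-0.49 to -0.09; p = 0.00412, adjusted p = 0.149), in MK at -0.01 (-0.29 to 0.27) and in JB170 at 0.05 (-0.15 to 0.24) in the authors' deposited table. The A1000 interval lies apart from the other 3. APBB1 (ENSG00000166313), the adaptor Fe65 that binds the tail of the amyloid precursor protein, was at -1.07 with alisertib (-1.54 to -0.61) in the authors' deposited table. The authors' deposited table gave APBB1 -0.38 in A100 (-0.81 to 0.04), -0.06 in MK (-0.51 to 0.39) and 0.18 in JB170 (-0.22 to 0.57). ENDOD1 (ENSG00000149218), a protein with a nuclease-like domain, had the smallest decrease, -0.49 with alisertib (-0.76 to -0.23) or 71.0% of the DMSO level in the authors' deposited table. It stood at -0.02 in A100 (-0.27 to 0.23), -0.21 in MK (-0.54 to 0.12) and 0.24 in JB170 (-0.01 to 0.49), the highest JB170 value of the 9 (p = 0.0580, adjusted p = 1), in the authors' deposited table.

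Of the transcription regulators, CITED4 (ENSG00000179862) binds the coactivators CBP and p300 and has no DNA-binding domain of its own. Its values in the authors' deposited table were -1.10 with alisertib (-1.36 to -0.84), -0.41 in A100 (-0.66 to -0.16), -0.50 in MK (-0.82 to -0.18) and 0.11 in JB170 (-0.12 to 0.35). The A100 value (p = 0.00119, adjusted p = 0.0757) and the MK value (p = 0.00194, adjusted p = 0.164) both missed the threshold in the authors' deposited table. HIVEP3 (ENSG00000127124), a large zinc finger protein that binds kappa B-like motifs, was the one gene of the 9 called outside A1000. It fell by 0.71 in MK (log2 fold change -0.71, interval -1.05 to -0.36, adjusted p = 0.0233 in the authors' deposited table), 61.3% of the DMSO level. With alisertib it stood at -0.81 (-1.09 to -0.52), in A100 at -0.13 (-0.39 to 0.13) and in JB170 at 0.02 (-0.24 to 0.27) in the authors' deposited table. The MK call was lost at a threshold of 0.01.

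Set side by side, the 9 genes had different point values outside column A1000. MYBPH, CHI3L1, SLC2A5 and APBB1 lay between -0.07 and 0.08 in MK in the authors' deposited table, while CITED4, HIVEP3, KAZALD1 and MYO7A lay between -0.74 and -0.44 there. ENDOD1, at -0.21, stood between them. This split was drawn after the values were seen, and it was not tested. Some MK intervals overlap across it, as for MYO7A (-0.98 to 0.10) and APBB1 (-0.51 to 0.39). Others do not, as for HIVEP3 (-1.05 to -0.36) and MYBPH (-0.20 to 0.36). In A100 the lowest values of the authors' deposited table were those of KAZALD1 (-0.62), MYO7A (-0.60), CITED4 (-0.41) and APBB1 (-0.38). KAZALD1 and MYO7A have the lowest mean log2 CPM of the group, and their intervals are the widest in both columns. The order within A1000 is also coarse: the intervals of MYBPH, KAZALD1, CITED4, APBB1, MYO7A and SLC2A5, from -1.25 to -1.06 in the authors' deposited table, all overlap.

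The difference of A1000 minus A100 ranged from -1.12 for MYBPH to -0.47 for MYO7A, with a median of -0.69, as computed from the authors' deposited table. Its 95% interval lay below 0 for 7 of the 9 genes and included 0 for KAZALD1 (-0.60, interval -1.28 to 0.08) and MYO7A (-0.47, -1.21 to 0.26), computed from the authors' deposited table. For A1000 minus MK the interval lay below 0 for 5, namely MYBPH, CHI3L1, CITED4, APBB1 and SLC2A5. It included 0 for HIVEP3 (-0.10, -0.54 to 0.34), ENDOD1 (-0.28, -0.71 to 0.14), KAZALD1 (-0.47, -1.19 to 0.24) and MYO7A (-0.63, -1.39 to 0.12), again from the authors' deposited table. For A1000 minus JB170 it lay below 0 for all 9, from -1.43 (MYBPH) to -0.74 (ENDOD1) in values computed from the authors' deposited table, a contrast that was itself used to name some of them. With the JB170 column turned it lay below 0 for 8, and that of ENDOD1 included 0 (-0.25, interval -0.62 to 0.11), computed from the authors' deposited table. These differences are descriptions with no test, because the genes were chosen for low A1000 values. That choice favours differences below 0. The share of all genes with such an interval was not computed, so nothing is read from these counts. The intervals make no allowance for DMSO libraries shared between comparisons, which would make them too wide where libraries are shared.

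**Figure D2:**
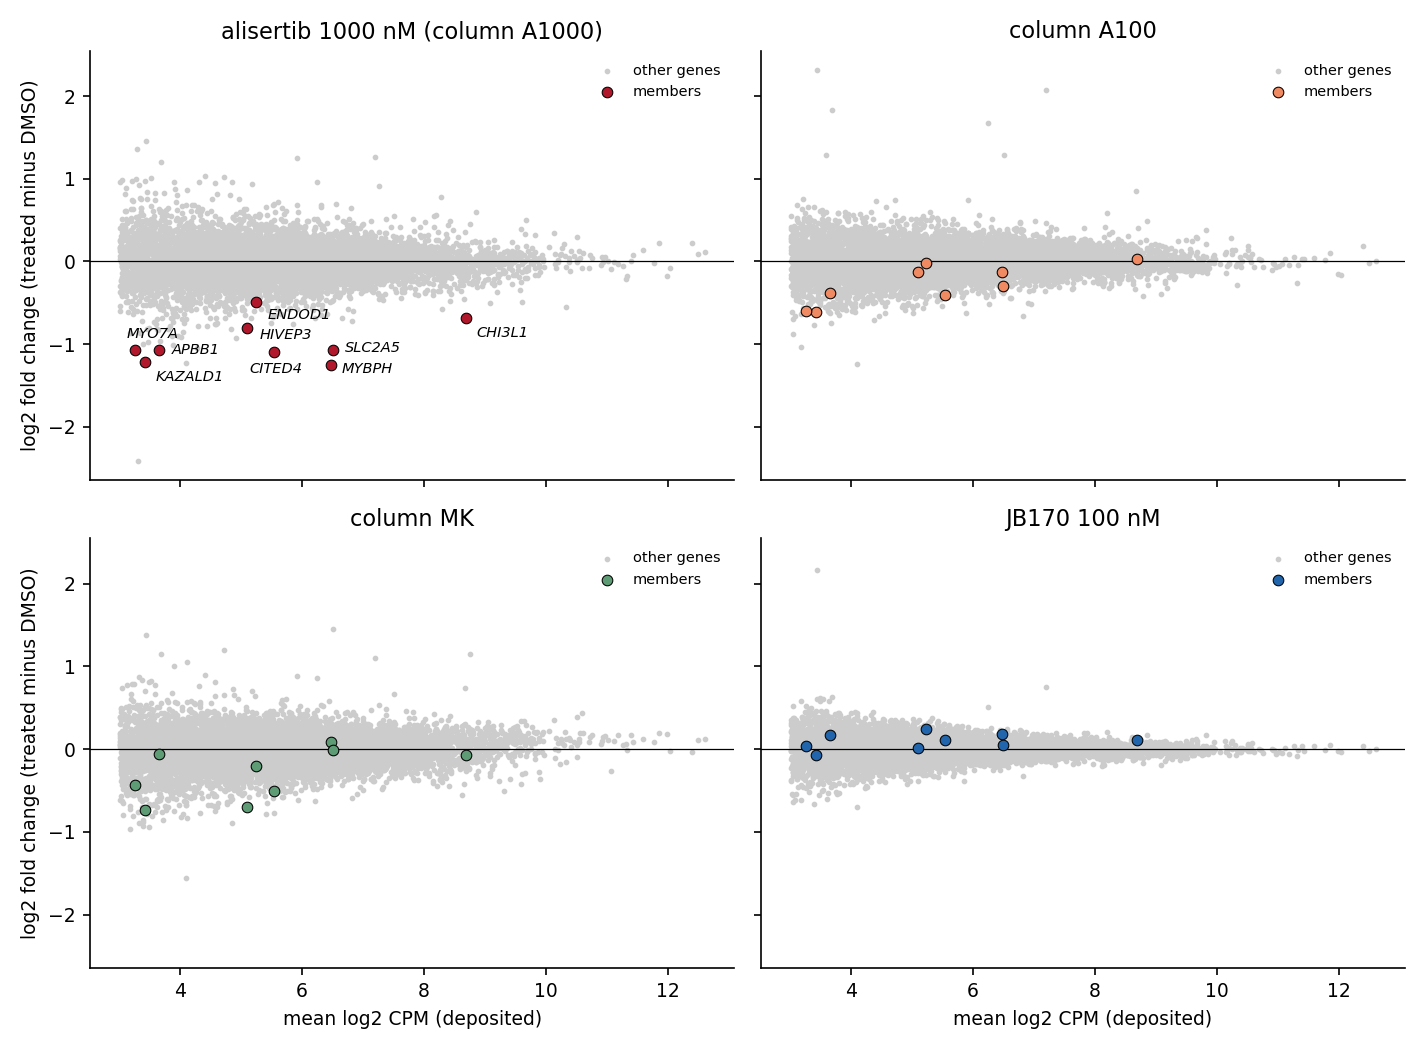
Log2 fold change (treated minus DMSO, y axis) against the deposited mean log2 CPM (x axis) in the 4 comparisons, for genes with a mean of at least 3 (grey) and the 9 members (coloured, named in the first panel). The members lie under the grey cloud for alisertib, with ENDOD1 (-0.49) at its lower edge, and within it in the JB170 panel, between -0.07 and 0.24.

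Among the 9321 genes with a mean log2 CPM of at least 3, 357 were called lower in A1000. Ranked by the size of the decrease among those 357, MYBPH was 2, KAZALD1 4, CITED4 5, APBB1 6, MYO7A 7 and SLC2A5 8, whereas HIVEP3 was 26, CHI3L1 45 and ENDOD1 120. The last 3 were thus not among the largest decreases. Next in rank after SLC2A5 came the non-members PDGFA at -1.05 and PPFIA4 at -1.01 in the authors' deposited table. FGR, a SRC family kinase, at -2.41, and CHAC1, a glutathione-degrading enzyme, at -1.23, were the non-members that fell in A1000 as far as the 5 most decreased members in the authors' deposited table. CHAC1 was low in every column of the authors' deposited table (-1.24 in A100, -1.55 in MK and -0.70 in JB170). FGR, like MYBPH, was near 0 outside A1000 in the authors' deposited table (-0.21, 0.09 and 0.18 in the same order). The other 348 genes called lower in A1000 at this level had medians of -0.41 in A1000, -0.22 in A100, -0.22 in MK and -0.09 in JB170 in the authors' deposited table. The median of the 9 in A100 (-0.29) and MK (-0.21) was close to those values. In JB170 it was 0.11, a value that the choice of some members by their difference from JB170 bears on and whose sign rests on the inferred direction.

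Relatives and partners of the 9 genes were taken from lists by family. Of 87 listed genes 59 were measured. In A1000 2 of the 59 were called lower and 3 higher, next to 2.83% lower and 3.09% higher of all genes, and the median was 0.03, against 0.01 for all genes. In A100 0 fell and 1 rose (0.537% and 0.761% of all genes), in MK 1 fell and 0 rose (0.149% and 0.321%), and in JB170 none was called (0.00746% and 0.0224%). No relative of MYBPH was measured. The 5 measured chitinase-like relatives of CHI3L1 did not pass in any column, with CHID1 at 0.06 in A1000 in the authors' deposited table; CHIT1 and CHI3L2 had means below 0 log2 CPM.

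CITED2, the paralogue of CITED4, stood at -0.04 in A1000 in the authors' deposited table. CREBBP, which encodes the partner CBP, rose by 0.41 in A1000 (adjusted p = 0.00584), and EP300, which encodes p300, rose by 0.41 in A100 (adjusted p = 0.0491), both in the authors' deposited table. None of the 9 measured relatives and partners of APBB1 was called, with APBB2 at -0.29, APBB3 at 0.21 and APP at 0.14 in A1000 in the authors' deposited table. Of the 9 hexose transporters and fructose enzymes none was called in A1000. SLC2A1, the basal glucose transporter, stood at -0.02 and KHK, the fructose kinase, at -0.31 in A1000 in the authors' deposited table. ALDOC, an aldolase, was called lower in the MK column of the authors' deposited table (-0.83, adjusted p = 0.0260).

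HIVEP1 (-0.13) and HIVEP2 (0.08) were not called in A1000, nor were the nucleases ENDOG (-0.15) and EXOG (0.17), in the authors' deposited table. The 4 measured relatives of KAZALD1 were not called, with IGFBP2 at -0.03 and IGFBP4 at 0.21 in A1000 in the authors' deposited table. Among 22 myosins and Usher complex genes 2 fell and 2 rose in A1000. In column A1000 MYO10, a motor of filopodia, fell by 0.41 (adjusted p = 0.00342) and MYO19, a motor of mitochondria, fell by 0.39 (adjusted p = 0.00515), both from the authors' deposited table. MYO18A rose by 0.41 (adjusted p = 0.0113) and MYO1G, a myosin of blood cells, rose by 0.25 (adjusted p = 0.0392), both from the authors' deposited table.

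**Figure D3:**
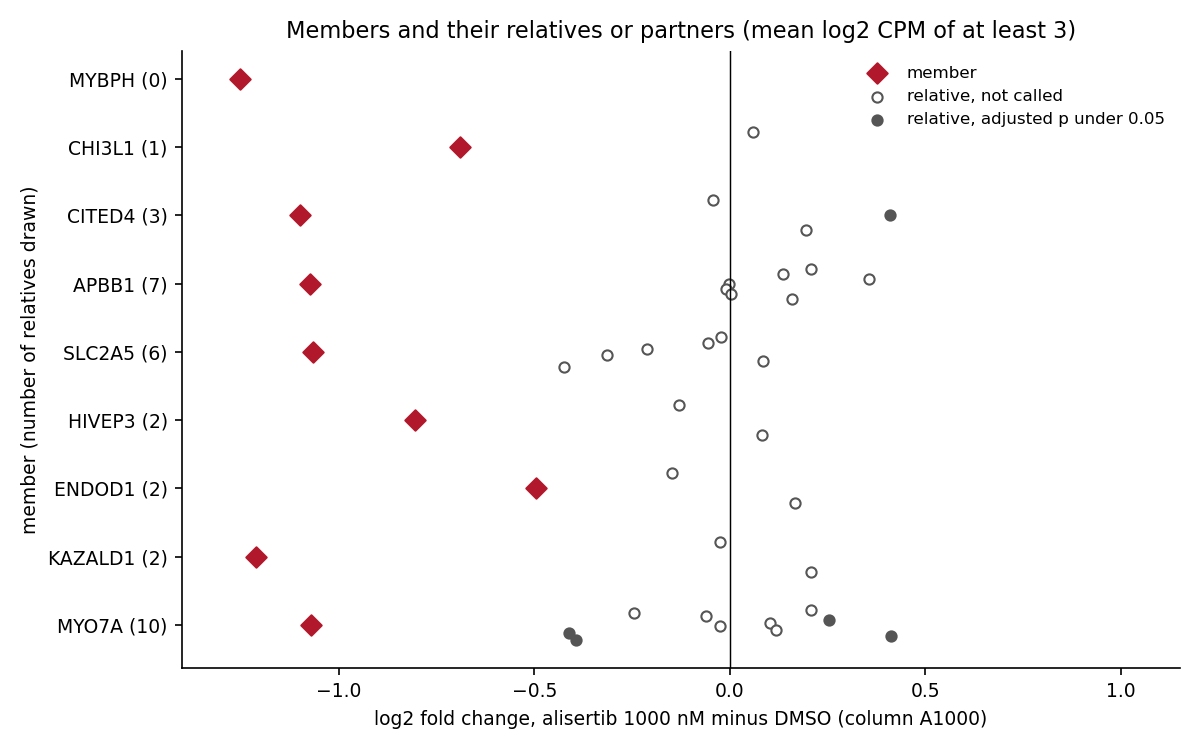
Log2 fold change with alisertib (x axis) of each member (red diamond) and of its measured relatives and partners with a mean log2 CPM of at least 3 (circles; filled, adjusted p under 0.05), 1 row per member. The row of MYBPH holds no circle. In the other rows the diamond lies to the left of all circles, which the choice of members for low A1000 values favoured. The lowest circle is ALDOC at -0.42, in the row of SLC2A5. MYO16 (-2.35) and MYO15A (-1.48), lower than MYO7A but not called, have means under the floor of 3 and are not drawn.

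The genomic position of the 9 genes was looked up in GENCODE release 29 (GRCh38). Of the 9, 5 lie on chromosome 1, 3 on chromosome 11 and 1 on chromosome 10. Chromosome 1 held 10.1% of the 13197 measured genes with a position and 12.5% of the 375 that were called lower in A1000. Chromosome 11 held 5.46% and 8.8%. MYBPH (chr1:203167811-203175813) and CHI3L1 (chr1:203178931-203186749) are neighbours on the minus strand, 3117 bases apart. No other measured gene overlaps any of the 9 in this annotation, although unmeasured annotated genes overlap SLC2A5 and HIVEP3. SLC2A5, CITED4 and HIVEP3 all lie on the short arm of chromosome 1.

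Within 500 kb of a member, midpoint to midpoint, 58 other genes were measured. In A1000 3 of the 58 were called lower and 2 higher, next to 2.83% and 3.09% of all genes. They were PPFIA4, ADORA1 and PDZD7 on the lower side and KDM5B and BTG2 on the higher side, and all but PDZD7 lie around MYBPH and CHI3L1. PPFIA4, a liprin scaffold of synapses, fell by 1.01 (interval -1.43 to -0.59, adjusted p = 0.000248) in column A1000 of the authors' deposited table. ADORA1, the adenosine A1 receptor, fell by 1.12 there (interval -1.74 to -0.49, adjusted p = 0.0143), with a mean log2 CPM of only 2.56 in the authors' deposited table. PPFIA4, ADORA1, MYBPH and CHI3L1 are 4 measured genes in a row. At an adjusted p threshold of 0.01 ADORA1 was not called, and the row was reduced to the pair MYBPH and CHI3L1. ADORA1 runs towards MYBPH on the opposite strand and ends 405 bases from it, and whether reads were counted by strand is not stated.

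The flanking gene TMEM183A, which ends 1649 bases before PPFIA4, stood at -0.07 in A1000 in the authors' deposited table and was not called. CHIT1, on the other side, had a mean of -0.42 log2 CPM in the authors' deposited table, too low to read. BTG2, an antiproliferative gene induced by p53, rose by 0.96 in A1000 (adjusted p = 1.16e-06) and by 1.01 in MK (adjusted p = 0.000185), both from the authors' deposited table. KDM5B, a histone H3 lysine demethylase, rose by 0.53 (adjusted p = 8.80e-07) in column A1000 of the authors' deposited table. In MK ADORA1 stood at -1.13 (p = 0.000835, adjusted p = 0.107) and PPFIA4 at -0.12 in the authors' deposited table, next to 0.08 for MYBPH and -0.07 for CHI3L1. In A100 PPFIA4 stood at -0.55 (interval -0.94 to -0.15) and ADORA1 at -0.58 (-1.16 to 0.01), in the authors' deposited table. MYBPH was at -0.13 and CHI3L1 at 0.02 there. In JB170 the values were 0.04 for PPFIA4, -0.50 for ADORA1, 0.18 for MYBPH and 0.11 for CHI3L1. None of these A100 and JB170 values was called. Neighbours in this row therefore had different values outside A1000, and the differences were not tested.

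**Figure D4:**
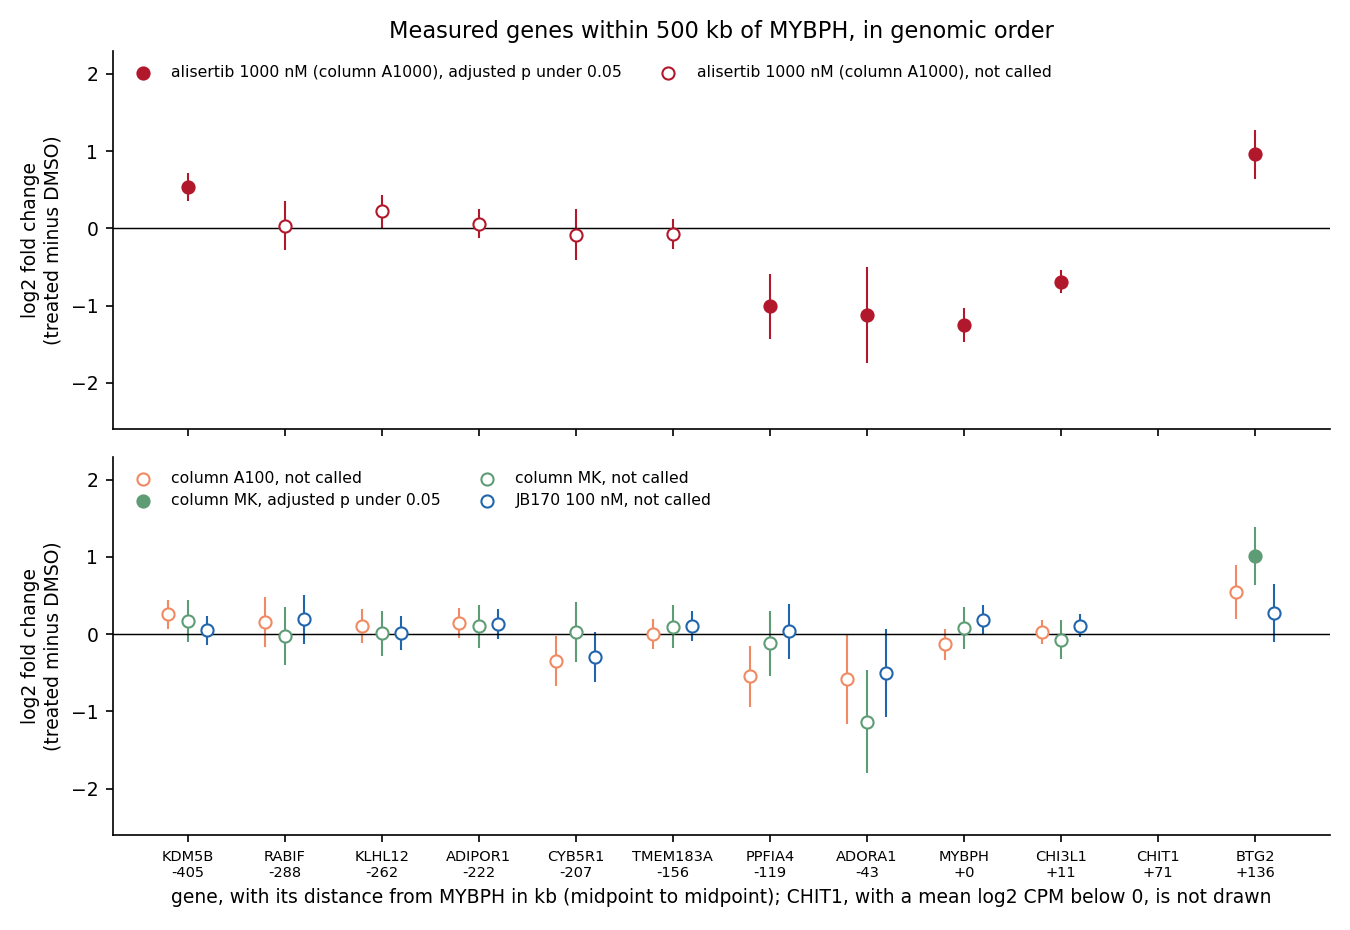
Log2 fold change (y axis, with implied 95% intervals) of the measured genes within 500 kb of MYBPH, in genomic order with the distance from MYBPH in kb; filled points passed an adjusted p of 0.05. In the upper panel PPFIA4 (-1.01), ADORA1 (-1.12), MYBPH (-1.25) and CHI3L1 (-0.69) are filled and below 0 for alisertib; in the lower panel the one filled point is BTG2 in MK (1.01).

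Next to KAZALD1, PDZD7 (45.0 kb away, midpoint to midpoint), a scaffold of hair cell stereocilia, fell by 0.69 (adjusted p = 0.00674) in column A1000 of the authors' deposited table. In the authors' deposited table it stood at -0.44 in A100 and -0.68 in MK, without passing the threshold, next to -0.62 and -0.74 for KAZALD1. None of the measured neighbours of CITED4, HIVEP3, SLC2A5, APBB1, ENDOD1 or MYO7A was called in A1000. These were 9, 2, 6, 15, 3 and 6 genes in that order.

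The genes whose values were most like the median profile of the 9 were sought among the other 348 genes called lower in A1000, by Euclidean distance over the 4 comparisons. The 5 nearest were PPFIA4 (distance 0.29), SLC9C1 (0.32), RGS16 (0.37), FAM20C (0.39) and C1orf106 (0.40). The members themselves lay at distances from 0.19 (APBB1) to 0.66 (KAZALD1) from that profile, so the nearest genes are no farther from it than several members. RGS16, a regulator of G protein signalling, stood at -0.92 in A1000, -0.32 in A100, -0.05 in MK and -0.19 in JB170 in the authors' deposited table. FAM20C, a kinase of secreted proteins, stood at -0.90, -0.23, 0.13 and 0.09 in the same order in the authors' deposited table. The 4 values are all set against DMSO and may share its libraries, so likeness over them is not independent evidence.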

How the data were processed

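The values were read from 1 table of comparisons deposited by the authors, holding for each gene and each of 4 comparisons a log2 fold change with its p-value before and after adjustment, and 1 mean log2 CPM column, per the file headers. Directional libraries of poly(A)-enriched RNA were sequenced, per the labels' protocols. Per the submitters' processing notes the tools were TopHat2 2.1.1, Bowtie2 2.3.2 and FastQC, with build hg19. How reads were counted, normalized and tested is not given in the sources used here. Deposited adjusted p-values match 16812 tests, of which 3402 are not analysed here. Of 13485 rows, 80 carried 5 repeated identifiers and were reduced to the entry with the smallest p, leaving 13410 genes. Depth is unknown.

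Direction was inferred. As deposited, the JB170 column had Pearson's r of -0.49 with A1000, -0.53 with A100 and -0.45 with MK across genes, which are not independent. In A1000, A100 and MK, positive values had larger implied errors (0.26, 0.25 and 0.17 on the log2 scale) than negative ones, over genes at least 1 log2 unit from 0 whose mean log2 CPM was 0 to 4; this gap was 0.02 in JB170. Those 3 columns were multiplied by -1.

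A standard error was computed as the absolute log2 fold change over the normal z of its p-value. Where z was under 1, the running median of 60 bins by mean log2 CPM was taken instead. This step was tried on simulated data whose p-values came from the same normal formula. That trial checks the arithmetic and cannot show whether the intervals hold for the deposited p-values, whose test is not stated. No test was computed; genes were called at a deposited adjusted p under 0.05. The members and lists were chosen with earlier results of these data known. The genes named are the members, called relatives and called neighbours within 500 kb, the 5 nearest profiles and the non-members that fell as far as the 5 most decreased members; other genes named were chosen after their values were seen. Python 3.11.15, pandas 2.3.3, numpy 2.4.6 and scipy 1.17.1 were used.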

Additional observations from a re-analysis of the deposited data

How the results depend on the processing

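Values per library were not used, so no library could be left out. No paired analysis was possible because the table holds comparisons, not libraries. In A1000 the count of members called lower went from 9 to 8 at an adjusted p threshold of 0.01, without ENDOD1. The count in A100, 0 in the report, was 1 (CITED4) at an adjusted p threshold of 0.1 and 4 with an unadjusted p under 0.05. In MK the count of 1 was 0 at a threshold of 0.01 and 3 with an unadjusted p. With the JB170 column read like the others, the members' median there was -0.11, and the values were -0.18 for MYBPH, -0.11 for CHI3L1, -0.11 for CITED4, -0.18 for APBB1, -0.049 for SLC2A5, -0.015 for HIVEP3, -0.24 for ENDOD1, 0.072 for KAZALD1 and -0.037 for MYO7A; none was called. Chosen after seeing the data were the settings that follow. With the JB170 column turned, the interval of A1000 minus JB170 lay below 0 for 8 members, not 9, and the 5 nearest profiles were the same genes. The called relatives in A1000 went from 5 to 3 at a threshold of 0.01. The neighbours called lower went from 3 to 2 of 58 at a threshold of 0.01, without ADORA1, and to 5 of 58 at 0.1. Within 1000 kb they were 5 of 118 at 0.05, next to 2.83% of all genes. The share of all genes was not computed at 0.01 or 0.1, so no count at those thresholds can be set against it. The run of 4 around MYBPH was 2 at 0.01 and 4 at 0.1. Each change went with the setting named beside it, and no further cause was tested. The adjustment recomputed over the genes of the table, centring on the median of all genes, the floor of 3 on the mean log2 CPM and the first entry of repeated identifiers changed no member's call. Depth is unknown.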

Other observations

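The run of neighbours around MYBPH was set beside the rest of the genome. With the measured genes ordered along each chromosome, PPFIA4, ADORA1, MYBPH and CHI3L1 were the longest run of consecutive genes called lower in A1000, 4 genes over 160 kb. The choice of MYBPH and CHI3L1 used their A1000 values, so the length of this run is a description only. At an adjusted p threshold of 0.01, where ADORA1 was not called, the run was the pair MYBPH and CHI3L1, both members, and was 1 of 8 pairs, the longest runs at that threshold. The next longest runs in A1000 at a threshold of 0.05 were 20 pairs. In A100 there were 3 pairs, namely AZU1 with PRTN3, SNHG1 with SLC3A2 and STRA13 with LRRC45, all of which were also pairs in A1000. In MK and JB170, where fewer genes were called, no run was found. FAM20C, one of the nearest profiles, formed an A1000 pair with PDGFA. These genes were named after their values were seen, and reads shared between adjacent genes were not tested.

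TATAA in the 50 bases before the start was also counted over other genes with a mean log2 CPM of at least 3. It stood in 18 of 257 promoters (7%) of genes called lower in A1000, members left out, in 14 of 276 (5.07%) of genes called higher, and in 170 of 6676 (2.55%) of all such genes. Only genes whose symbol matched the RefSeq table were counted.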
